A study of Mus musculus with 6 samples.

Results

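The 10 genes described here encode the cytosolic chaperone HSP90 and a set of its cochaperones: the 2 HSP90 genes Hsp90aa1 and Hsp90ab1, and Fkbp4, Fkbp5, Ppid, Stip1, Ahsa1, Cdc37, Ptges3 and Chordc1. They were chosen as a family because Fkbp4 and Ppid were among the strongest decreases with AG636, so every value of theirs in that comparison is a description without a test. All 10 were in the table of 54838 genes and all 10 passed the filter on low counts, which left 11092 genes tested.

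The samples were 6 RNA libraries of sorted acute myeloid leukemia (AML) cells from mice, 3 given Vehicle and 3 given AG636, an inhibitor of the pyrimidine synthesis enzyme DHODH, by oral gavage at 100 mg/kg b.i.d. In both groups the leukemia carried IDH1R132H, DNMT3AR882H and NrasG12D on a C57BL/6 background and grew in irradiated Ptprca recipients. The model was made by transducing fetal liver progenitors with the mutant genes, and leukemic cells were sorted from bone marrow and spleen, described for this model as cKit+CD11b- and in the study's general RNA method as high in cKit and low in CD11b. Treatment lasted 1 day, and each library is taken as 1 mouse, since each group had 3 mice. Mouse ages are not given in the sources used here.

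HSP90 holds nearly folded proteins in an ATP-driven clamp, and its clients include protein kinases and steroid hormone receptors. Cochaperones set the pace and the cargo of this cycle: Stip1 (HOP) hands clients over from HSP70, Cdc37 brings kinases, Ahsa1 (AHA1) speeds ATP hydrolysis, and Ptges3 (p23) holds the closed clamp. Fkbp4 (FKBP52), Fkbp5 (FKBP51) and Ppid (cyclophilin 40) are prolyl isomerases that bind the end of HSP90 through TPR domains and enter the mature receptor complex. FKBP51 restrains the glucocorticoid receptor and its gene is a known target of that receptor.

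Libraries held 4634963 to 7906589 counts. Values are counts per 1000000 counts (CPM) after TMM scaling, in which a library's total is adjusted for its composition, and a difference is AG636 minus vehicle on the log2 scale with its standard error (SE) from edgeR. The kit reads the 3′ end of a transcript, so a long transcript is not counted more often than a short one, and a level here is a number of transcript ends. In a bulk sample, fewer cells of a type and less RNA per cell cannot be told apart.

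Across the family, 9 of the 10 transcripts were lower in all 3 AG636 libraries than in any vehicle library, and the median log2 difference was -0.72. Of all genes tested, 20.6% had AG636 libraries wholly below vehicle libraries and 20.5% wholly above (41.1% in all), and the median log2 difference of all genes was 0.03. Over all genes 1146 were called higher and 1222 lower with AG636 at an adjusted p under 0.05, and 1483 and 913 when libraries were scaled by their size alone. Of the 10, 7 had an adjusted p under 0.05 and were lower, beside 11.0% of all genes lower and 21.3% called in either direction, and the 3 that did not were Fkbp5, Cdc37 and Chordc1. Nothing is read from these counts, because the family was picked on this contrast. Fkbp5 alone had a higher mean with AG636, and its groups overlapped.

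**Figure D1:**
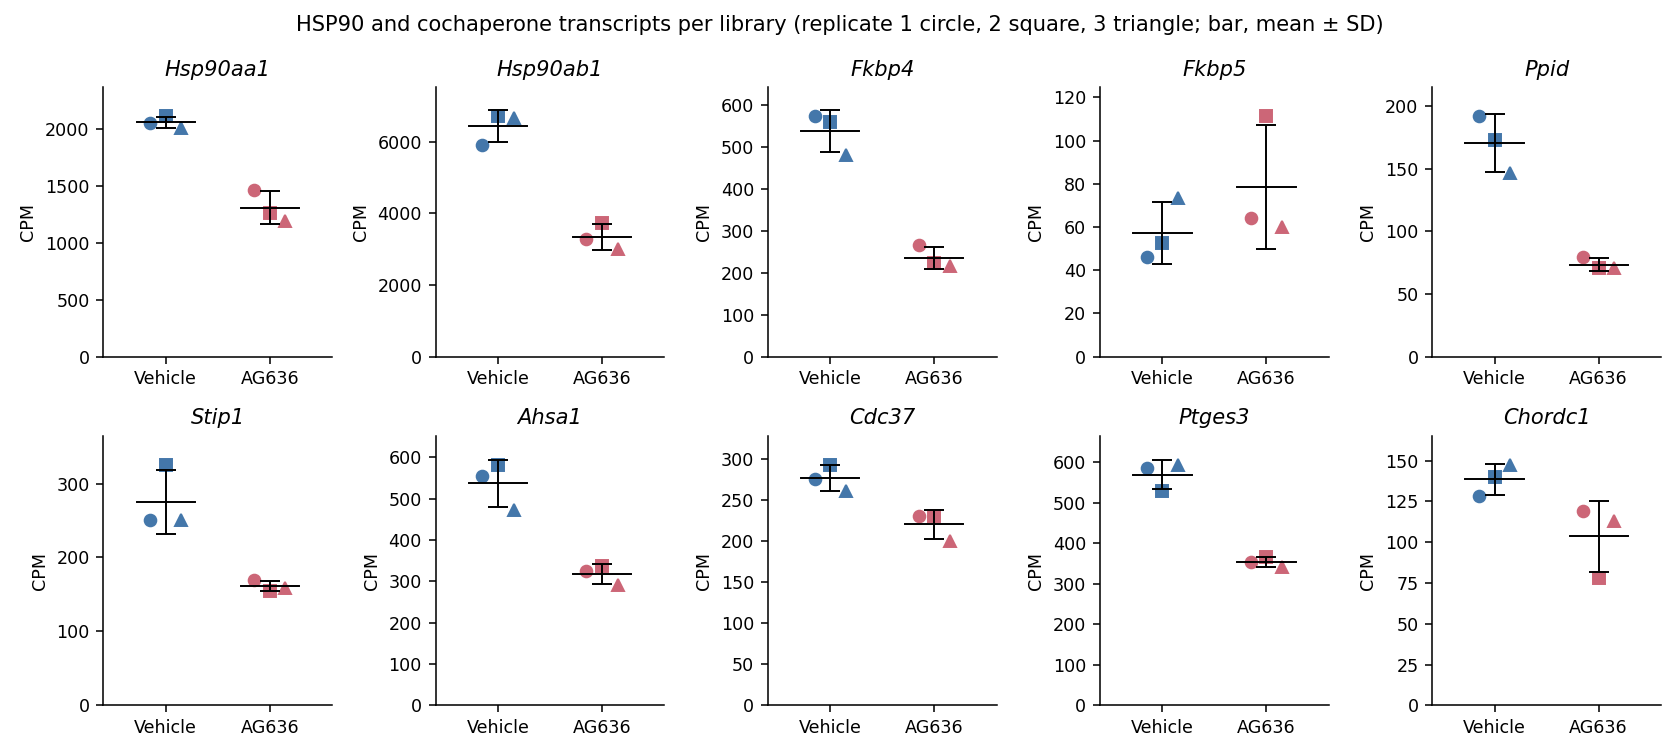
Level of each of the 10 transcripts in CPM (vertical axes from 0), with 1 point per library and bars for the mean ± SD of 3 libraries. The Vehicle and AG636 points are apart for every gene but Fkbp5, whose AG636 libraries span 59.8 to 111 CPM.

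The HSP90 genes made up most of the family's transcripts. Hsp90ab1 (chr17:45567775-45573271 of mm10), the constitutive HSP90 beta, was at 5917, 6712 and 6666 CPM in the vehicle libraries and at 3273, 3742 and 3001 CPM in the AG636 libraries. Its log2 difference was -0.95 (SE 0.11), and the lowest vehicle library stood well above the highest AG636 library. Hsp90aa1 (chr12:110690605-110702728 of mm10), the stress-inducible HSP90 alpha, was at 2046, 2109 and 2008 CPM with vehicle and at 1466, 1263 and 1192 CPM with AG636, a log2 difference of -0.65 (SE 0.11). The vehicle libraries lay close together (SD 0.04 on the log2 scale) and the AG636 libraries were more spread (SD 0.15), without touching the vehicle range. The ratio of Hsp90ab1 to Hsp90aa1 was 2.89, 3.18 and 3.32 with vehicle and 2.23, 2.96 and 2.52 with AG636, so AG636 replicate 2 lay within the vehicle range. Near-identical pseudogene copies exist for both genes, and how reads shared with copies were counted is not given in the sources used here.

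Among the receptor-complex isomerases, Fkbp4 (chr6:128429735-128438677 of mm10) had 574, 560.3 and 480.4 CPM with vehicle and 265, 224 and 217 CPM with AG636. The log2 difference was -1.19 (SE 0.13), which placed it at 221 from the lowest of the 11092 genes. Ppid (chr3:79591342-79603650 of mm10) had 192, 173 and 147 CPM with vehicle and 79.4, 70.7 and 70.4 CPM with AG636, with a log2 difference of -1.21 (SE 0.14), at place 213. In both genes vehicle replicate 1 was the highest and vehicle replicate 3 the lowest of its group, and AG636 replicate 1 was the highest of its group. The ratio of Fkbp4 to Ppid stayed between 2.99 and 3.34 in all 6 libraries, with means of 3.17 ± 0.16 (SD, n = 3) in the vehicle group and 3.19 ± 0.13 (SD, n = 3) in the AG636 group.

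Fkbp5 (chr17:28399094-28517527 of mm10), the third isomerase of this kind, had 46.0, 52.7 and 73.3 CPM with vehicle and 64.1, 111 and 59.8 CPM with AG636. Its log2 difference was 0.45 (SE 0.25). AG636 replicate 2 was the highest of the 6 libraries, and the other AG636 libraries lay within the vehicle range. Without AG636 replicate 2 the log2 difference was 0.11, and without vehicle replicate 3 it was 0.64. Fkbp5 also varied most within groups, with a pooled SD of 0.42 on the log2 scale against 0.07 to 0.24 for the other 9 genes. The ratio of Fkbp4 to Fkbp5 was 12.5, 10.6 and 6.55 with vehicle and 4.14, 2.01 and 3.62 with AG636, and these groups did not overlap. Fkbp4 was picked for its decrease, so this gap is not a result apart from that choice.

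**Figure D2:**
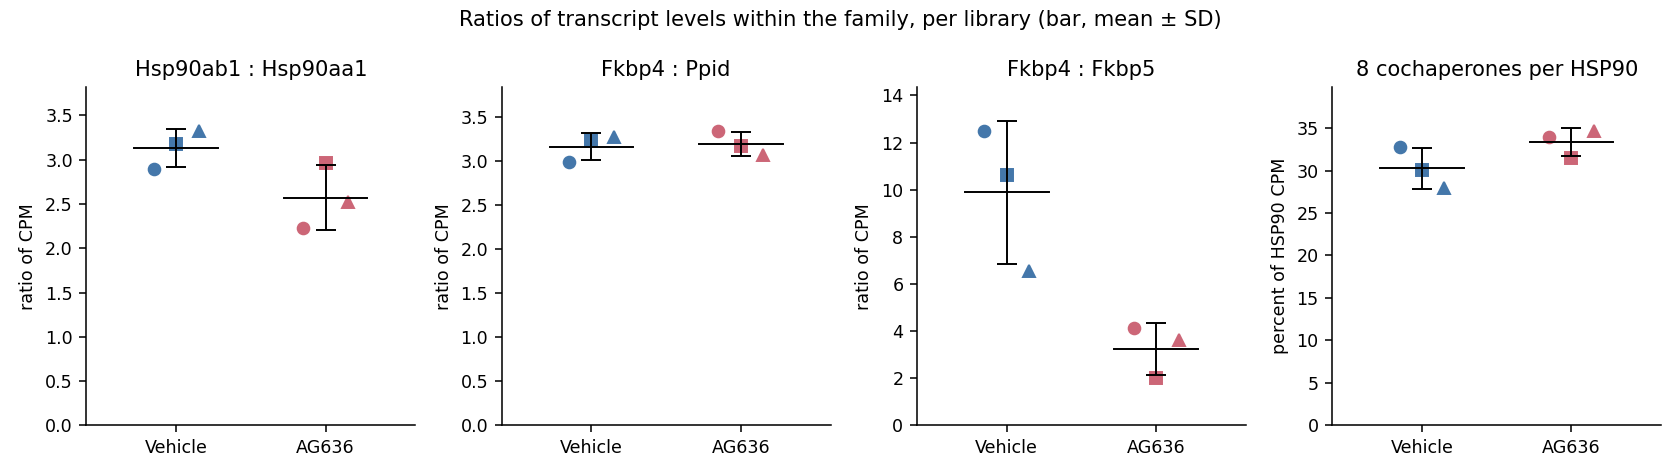
Ratios of CPM within the family, 1 point per library (circle, square and triangle for replicates 1, 2 and 3) with the mean ± SD of 3 libraries, on axes from 0. Fkbp4 to Ppid lay between 2.99 and 3.34 in all libraries, while Fkbp4 to Fkbp5 averaged 9.89 with Vehicle and 3.26 with AG636.

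The cochaperones that move clients onto HSP90 and through its cycle differed less than Fkbp4 and Ppid. That order is not read as a result, because Fkbp4 and Ppid were picked as strong decreases. Stip1 (chr19:7020696-7040026 of mm10) had 251, 325 and 250.1 CPM with vehicle and 169, 155 and 159 CPM with AG636, a log2 difference of -0.77 (SE 0.13). Vehicle replicate 2 was the high library of its group, and without it the difference was -0.65. Ahsa1 (chr12:87266479-87273998 of mm10) had 555, 582 and 473 CPM with vehicle and 325, 337 and 291 CPM with AG636, a log2 difference of -0.76 (SE 0.12). Ptges3 (chr10:128058954-128077272 of mm10) had 586, 529 and 594 CPM with vehicle and 355, 367 and 342 CPM with AG636, a log2 difference of -0.68 (SE 0.10). Ptges3 was the steadiest member within groups, and in Stip1, Ahsa1 and Ptges3 every AG636 library was below every vehicle library.

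The smallest decreases belonged to Cdc37 and Chordc1. Cdc37 (chr9:21133222-21149982 of mm10), the kinase adaptor, had 276, 293 and 261 CPM with vehicle and 230.02, 231 and 199.7 CPM with AG636, a log2 difference of -0.33 (SE 0.11). Chordc1 (chr9:18292125-18317442 of mm10), which encodes the CHORD-domain protein Morgana, had 128, 139.7 and 148 CPM with vehicle and 119, 78.4 and 113 CPM with AG636, a log2 difference of -0.42 (SE 0.16). AG636 replicate 2 was the low library: without it the Chordc1 difference was -0.26, and without AG636 replicate 1 it was -0.53. The groups of both genes were apart, though for Chordc1 the gap was small beside the spread of the AG636 libraries.

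Summed, the 10 transcripts were 10572, 11476 and 11100.4 CPM with vehicle and 6345, 6579.8 and 5644 CPM with AG636. As a share of all counts they averaged 1.07% ± 0.056 (SD, n = 3) in the vehicle group and 0.636% ± 0.045 (SD, n = 3) in the AG636 group. The 2 HSP90 genes together averaged 8486 ± 459 CPM (SD, n = 3) in the vehicle group and 4645 ± 414 CPM (SD, n = 3) in the AG636 group. The 8 cochaperones together averaged 2563 ± 121 CPM (SD, n = 3) in the vehicle group and 1544 ± 82.1 CPM (SD, n = 3) in the AG636 group. Cochaperone transcripts amounted to 30.3% of HSP90 transcripts with vehicle and 33.3% with AG636, and these groups overlapped. Within the AG636 group, replicate 3 was above the group mean for 1 of the 10 genes and replicate 1 for 8, and within the vehicle group replicate 2 was above it for 8.

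RefSeq's table of promoters on GRCm38.p6 held an entry for 7 of the 10 genes and none for Hsp90aa1, Hsp90ab1 and Ppid. Each entry runs from 250 bases before the start site to 50 bases after it. The promoters of Fkbp4, Fkbp5 and Chordc1 are printed because these genes had the largest decrease, the one increase and the decrease that varied most between libraries among the 7. Each is shown 5′ to 3′ on the gene's strand up to 30 bases past the start site. Capitals mark a pair of heat-shock half-sites (TTCNNGAA or GAANNTTC, the letters that heat shock factors bind in series). Fkbp4 is chr6:128438627-128438906 (minus strand), Fkbp5 is chr17:28486120-28486399 (minus strand) and Chordc1 is chr9:18292017-18292296 (plus strand).
Fkbp4: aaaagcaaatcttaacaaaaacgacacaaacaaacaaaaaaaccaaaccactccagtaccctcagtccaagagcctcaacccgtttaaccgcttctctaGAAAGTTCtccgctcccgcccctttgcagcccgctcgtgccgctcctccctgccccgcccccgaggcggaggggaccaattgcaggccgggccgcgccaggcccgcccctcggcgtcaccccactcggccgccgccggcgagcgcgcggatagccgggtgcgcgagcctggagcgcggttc
Fkbp5: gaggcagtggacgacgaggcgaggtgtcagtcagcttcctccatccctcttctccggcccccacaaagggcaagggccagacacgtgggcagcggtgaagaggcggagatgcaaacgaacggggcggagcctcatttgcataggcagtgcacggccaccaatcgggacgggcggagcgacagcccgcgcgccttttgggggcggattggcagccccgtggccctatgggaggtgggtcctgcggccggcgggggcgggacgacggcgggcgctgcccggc
Chordc1: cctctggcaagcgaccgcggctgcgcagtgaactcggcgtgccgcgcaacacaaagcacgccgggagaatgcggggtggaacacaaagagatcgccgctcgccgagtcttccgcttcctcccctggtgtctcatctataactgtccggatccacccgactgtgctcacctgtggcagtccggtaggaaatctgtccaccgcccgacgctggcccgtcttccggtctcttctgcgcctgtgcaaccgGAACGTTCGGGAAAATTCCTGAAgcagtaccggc
The pair occurred in 3 of the 7 windows, Fkbp4, Cdc37 and Chordc1, and in 15.1% of all 32851 promoters of the table. Fkbp4 held 1 pair, starting 151 bases before the start site. Chordc1 held 5, of which 4 overlap in a run that spans the start site and the fifth begins 34 bases into the transcript, past the printed end. A run of 3 half-sites (TTC and GAA in alternation, each spaced by NN) was found only in Chordc1 among the 7 and in 0.603% of all promoters. The letters CCAAT or ATTGG were in 4 of the 7 windows, Cdc37, Fkbp4, Fkbp5 and Stip1, and in 37.4% of all promoters. The E-box CACGTG was in Fkbp5 alone of the 7, 169 bases before the start site, and in 7.15% of all promoters, and it overlaps none of the other motifs searched. The glucocorticoid receptor palindrome (AGAACA and TGTTCT spaced by NNN) was in none of the 7 and in 0.00913% of all promoters. Each motif was searched on both strands, a run of 3 contains 2 overlapping pairs, a match is a stretch of letters and not a bound site, and a window without one says nothing about the factor. The RefSeq start of Fkbp5 lies inside the longer gene span given above.

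The genes with the pattern most like Fkbp4 over the 6 libraries were found by the root mean square distance between log2 CPM values centred on each gene's mean. Nearest was Comtd1 (distance 0.044), then Ppid (0.054), Ranbp1 (0.064), Mrpl12 (0.091) and Lrrc59 (0.098). Ppid was thus the second nearest gene of those tested, and Comtd1 had 62.4, 63.4 and 50.1 CPM with vehicle and 28.2, 25.2 and 24.2 CPM with AG636. This distance includes the gap between the groups. Fkbp4 and Ppid were both picked for that gap, so the places of the members describe the choice and are not a separate result. The next members in this order were Hsp90ab1 at place 150, Ahsa1 at 211, Stip1 at 255, Hsp90aa1 at 352 and Ptges3 at 447, followed by Chordc1 at 1650 and Cdc37 at 1739. Fkbp5 came at place 8911. Nearest to Fkbp5 were Ptbp2 (0.108), 9930012K11Rik (0.117), Ttc28 (0.132), Cep72 (0.133) and Casp4 (0.148), in all of which AG636 replicate 2 was the highest library. Fkbp5 was highest in that library too, so the shared peak follows from how these genes were picked. From Fkbp5, Ppid stood at place 10714 and Fkbp4 at 10688.

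Other cytosolic cochaperones are parts of the system outside the chosen 10. This list and those that follow were drawn up with earlier results of these data known. Their counts are thus not an independent check on the family. Of 34 listed, 32 were tested: 10 fell, 0 rose and 22 did not pass the threshold (quasi-likelihood test in edgeR, adjusted by Benjamini-Hochberg over all genes), which is 31.25% lower beside 11.0% of all genes. Their median log2 difference was -0.28, and 24 of the 32 values were below 0. Without AG636 replicate 1, and likewise without AG636 replicate 3, 6 fell. None was called higher by edgeR, DESeq2 or limma-voom, and 1 was higher at an unadjusted p under 0.05 in edgeR, which 37.1% of all genes passed in either direction.

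Among TPR proteins, which dock on the end of HSP90 as Stip1 and Fkbp4 do, 4 of 12 fell. St13 (HIP), which acts between HSP70 and HSP90, had 286, 357 and 319 CPM with vehicle and 209.8, 207 and 198 CPM with AG636 (log2 difference -0.65, edgeR adjusted p 0.00704). The others were Tomm70a, Ppp5c and Stub1, with log2 differences of -0.66, -0.58 and -0.52. The isomerase relatives Fkbp8 and Fkbpl had -0.08 and 0.09 and did not pass. Among 6 proteins with the CS domain that Ptges3 also has, 2 fell. Cacybp, a Siah1-binding protein, had 269, 210.1 and 205 CPM with vehicle and 126, 126 and 91.0 CPM with AG636 (log2 difference -0.99, edgeR adjusted p 0.00522). Nudc had a log2 difference of -0.58 (edgeR adjusted p 0.0114).

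In the R2TP and TTT complexes, which use HSP90 to assemble large machines and PIKK kinases, 3 of 8 fell. Ruvbl1 had 155, 147 and 132 CPM with vehicle and 75.0, 77.9 and 67.4 CPM with AG636 (log2 difference -0.98, edgeR adjusted p 0.00254). Its ATPase partner Ruvbl2 had a log2 difference of -0.84 (edgeR adjusted p 0.0057) and the TTT subunit Telo2 of -0.86 (edgeR adjusted p 0.00891). The remaining 5, Rpap3, Pih1d1, Wdr92, Tti1 and Tti2, lay between -0.33 and 0.23 and did not pass. Neither paralog of a member passed: Ahsa2 had -0.40 and Cdc37l1 had 0.12. Of 4 client-like regulators of the ATPase cycle, Fnip2 fell (-0.90, edgeR adjusted p 0.025), and Fnip1, Flcn and Tsc1 had values of 0.33, 0.39 and 0.23 that did not pass. Tomm70a, Ppp5c, Stub1 and Fnip2, and the genes here that did not pass, were named after their values were seen.

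**Figure D3:**
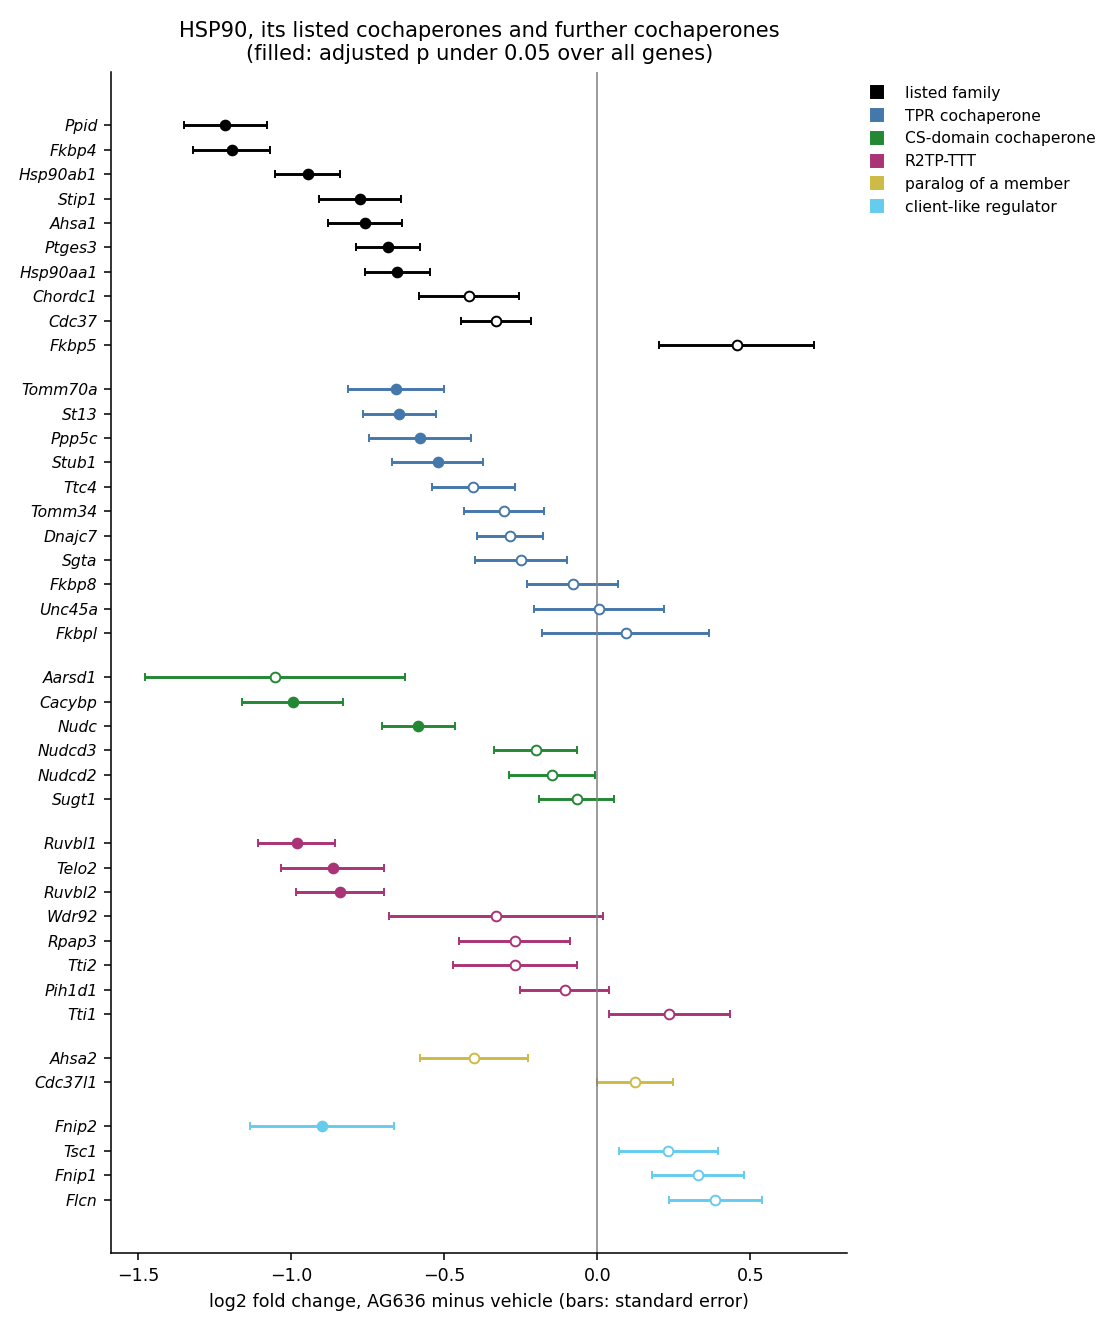
Log2 difference (AG636 minus Vehicle, horizontal axis) with its standard error for the 10 listed genes in black and further cochaperones coloured by role, where filled points passed the adjusted p of 0.05. Fkbp5 is the only listed gene right of 0, and filled points among the further cochaperones all lie left of 0.

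The HSP90 proteins of other compartments also had lower values. Trap1, the mitochondrial form, fell from 135 ± 7.42 to 78.4 ± 6.19 CPM (SD, n = 3 each; log2 difference -0.78, edgeR adjusted p 0.00425). Hsp90b1 (GRP94), the form of the endoplasmic reticulum, had 452, 453 and 671 CPM with vehicle and 385, 321 and 349 CPM with AG636 (log2 difference -0.58, edgeR adjusted p 0.0327). That call was lost in 5 of 13 alternatives, with adjusted p values (edgeR, limma or DESeq2) from 0.000208 to 0.0951 over the 13: with library size alone, and without vehicle replicate 3 or any 1 of the AG636 libraries. Hsp90b1 also overlaps 1810014B01Rik on the opposite strand, and how strand was counted is not given in the sources used here. The same limit holds for Ruvbl2 (with Gys1), Stub1 (Jmjd8), Tomm70a (Nit2), Tcp1 (Mrpl18), Cct6a (Psph), Cct7 (Pradc1), Cct8 (Usp16), Cdk4 (Tspan31), Stat3 (Stat5a) and Tgm2 (Rprd1b), and among genes that did not pass for Fkbp8 (Kxd1), Cdc37l1 (Ak3), Pih1d1 (Aldh16a1), Wdr92 (Pno1) and Tti2 (Mak16). Wdr92 also overlaps Ppp3r1 by 884 bases on the same strand, where Ppp3r1 had 7774 counts in total and Wdr92 had 532. The GRP94 cochaperone Cnpy3 had a log2 difference of 0.09 (edgeR adjusted p 0.687).

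The isomerase families to which Fkbp4, Fkbp5 and Ppid belong had medians near 0. Of 15 other FKBP genes 10 were tested and 1 fell, Fkbp11, an isomerase of the secretory pathway, from 16.3 ± 3.90 to 4.24 ± 0.466 CPM (SD, n = 3 each; log2 difference -1.93, edgeR adjusted p 0.0032). The median of the 10 was -0.02, and 0.07 when libraries were scaled by their size alone. Their values ran from -1.93 to 1.06, with 5 below 0 and 5 above. Of 16 other cyclophilins 14 were tested and 3 fell: Ranbp2, a nuclear pore protein (-0.60, edgeR adjusted p 0.0141), and the splicing-associated Ppil1 (-0.50, edgeR adjusted p 0.0353) and Ppil3 (-0.69, edgeR adjusted p 0.0301). The cyclophilin median was -0.10 with 11 of the 14 values below 0, and 21.4% fell beside 11.0% of all genes. Without any 1 AG636 library, or without vehicle replicate 2, only 1 cyclophilin passed, and Ppil3 overlaps Nif3l1 on the opposite strand. None of the tested genes in these 2 families rose by edgeR, DESeq2 or limma-voom, and 1 FKBP gene and 0 cyclophilins were higher at an unadjusted p under 0.05 (edgeR). The abundant Ppia, the cytosolic cyclophilin A, had a log2 difference of 0.03 (edgeR adjusted p 0.86, named after its value was seen).

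HSP70 with its J proteins and exchange factors delivers clients to HSP90 through Stip1. In this group 19 of 20 genes were tested, 6 fell and 0 rose by edgeR (0 also by DESeq2 and limma-voom, 1 at an unadjusted p under 0.05), with a median of -0.29. That is 31.6% lower beside 11.0% of all genes. Of the values 14 were below 0 and 5 above. The 5 were Hspa1a (0.46), Hspa1b (0.60), Hspa2 (0.66), Dnajb1 (0.13) and Dnajb4 (0.42), which did not pass and were named after their values were seen. Hsph1 (HSP110), an exchange factor of HSP70, had 185, 176 and 164 CPM with vehicle and 45.5, 44.5 and 48.7 CPM with AG636 (log2 difference -1.92, edgeR adjusted p 0.000186). Hspa8, the constitutive HSP70, had 404, 394 and 383 CPM with vehicle and 183, 154 and 208 CPM with AG636 (log2 difference -1.12, edgeR adjusted p 0.00203). Log2 differences were -1.32 for the exchange factor Bag2, -0.68 for Hspa4, -0.52 for the J protein Dnaja2 and -0.51 for Dnaja1. Dnaja1 overlaps Smu1 on the opposite strand and lost its call without any 1 of the 6 libraries. When AG636 replicate 1 or AG636 replicate 3 was left out 4 fell, and when vehicle replicate 3 was left out 7 fell and 1 rose.

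The TRiC chaperonin, which folds actin and tubulin and shares early folding work with HSP70, fell in all 8 of its subunits, with a median of -0.68 (7 of 8 with library size alone, and without vehicle replicate 1, vehicle replicate 3, AG636 replicate 1 or AG636 replicate 3). Of all genes, 11.0% were called lower. Cct8 had 954, 1004 and 874 CPM with vehicle and 546, 564 and 460.4 CPM with AG636 (log2 difference -0.85, edgeR adjusted p 0.0032). The other log2 differences were -0.88 for Cct6a, -0.76 for Tcp1, -0.69 for Cct3, -0.68 for Cct4, -0.60 for Cct7, -0.58 for Cct5 and -0.45 for Cct2. Their median lay near that of the HSP90 family, -0.72. The heat shock factors did not pass (0 also at an unadjusted p under 0.05, and by DESeq2 and limma-voom): Hsf1 had -0.28 (edgeR adjusted p 0.376), Hsf2 had -0.09 (edgeR adjusted p 0.801) and their binding protein Hsbp1 had 0.21 (edgeR adjusted p 0.325), while Hsf4 was below the count filter.

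**Figure D4:**
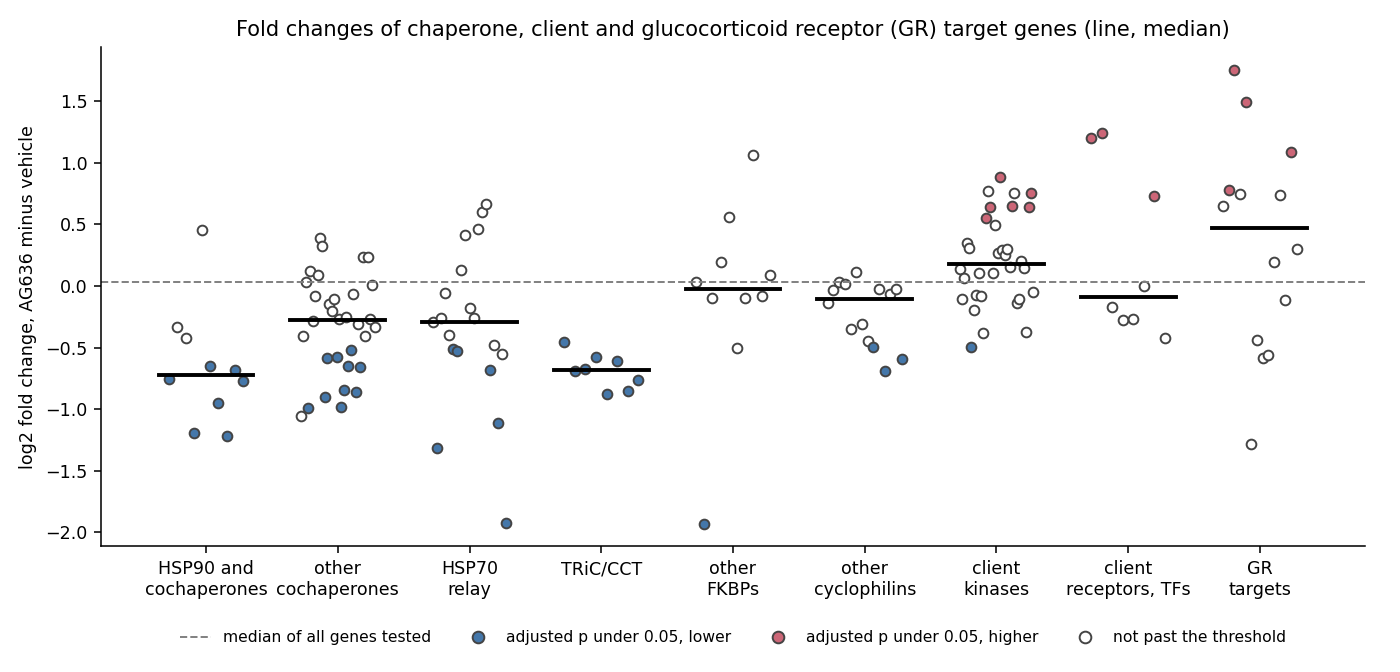
Log2 difference (AG636 minus Vehicle, vertical axis) of each tested gene in 9 groups, with a black line at each group's median, a dashed line at the median of all genes (0.03), and blue or red points for genes that passed lower or higher. Medians were -0.72 for the listed family, -0.68 for TRiC, -0.28 for the other cochaperones, 0.18 for client kinases and 0.47 for GR targets. The listed family was picked on this contrast, so its median is not a yardstick for the others.

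Genes whose proteins are known HSP90 clients were read at the transcript level only. Dependence on HSP90 is a property of the protein, so these values do not measure the amount or folding of a client. Of 34 client kinases 32 were tested, of which 6 rose and 1 fell, with a median of 0.18, beside 10.3% of all genes called higher. Insr, the insulin receptor, had 9.63, 9.68 and 9.61 CPM with vehicle and 18.9, 17.1 and 17.6 CPM with AG636 (log2 difference 0.89, edgeR adjusted p 0.0126). Its relative Igf1r had 196, 221 and 186 CPM with vehicle and 267, 327 and 344 CPM with AG636 (log2 difference 0.64, edgeR adjusted p 0.0115). The autophagy kinase Ulk1 had a log2 difference of 0.75, the SRC family kinase Lyn of 0.65, Tbk1 of 0.64 and Fyn of 0.55. Cdk4, a textbook CDC37 client of the cell cycle, fell from 217 ± 10.5 to 154 ± 12.7 CPM (SD, n = 3 each; log2 difference -0.49, edgeR adjusted p 0.0166). Tbk1 lost its call without any 1 library, and Lyn without vehicle replicate 1, vehicle replicate 3, AG636 replicate 1 or AG636 replicate 3. In all, 3 kinases rose without vehicle replicate 1 or without AG636 replicate 1. Cdk4 lost its call without vehicle replicate 2 or without AG636 replicate 3.

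Among receptors and transcription factors known as clients, 8 of 11 were tested, 3 rose and 0 fell by edgeR (0 also by DESeq2 and limma-voom, 1 at an unadjusted p under 0.05). Of all genes, 10.3% were called higher and 11.0% lower. The median of these 8 was -0.09 with 5 values below 0, and 0.0013 with library size alone. Stat3 had 179, 199 and 265 CPM with vehicle and 312, 360.04 and 392 CPM with AG636 (log2 difference 0.73, edgeR adjusted p 0.0135). Ahr and Esr1 had log2 differences of 1.20 and 1.24 at mean vehicle levels of 3.89 and 2.49 CPM, and the number that rose was 0 without vehicle replicate 2 or without AG636 replicate 3 and 1 without vehicle replicate 1, AG636 replicate 1 or AG636 replicate 2. Nr3c1, the glucocorticoid receptor that FKBP51 and FKBP52 regulate, had 77.0, 62.1 and 58.9 CPM with vehicle and 66.3, 60.4 and 70.8 CPM with AG636 (log2 difference -0.0042, edgeR adjusted p 0.987). Its groups overlapped.

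Genes known as glucocorticoid receptor targets were set beside Fkbp5. Of 18, 14 were tested, 4 rose and 0 fell by edgeR (3 lower at an unadjusted p under 0.05, and 1 lower by DESeq2 and 0 by limma-voom), with a median of 0.47 and 5 values below 0. Over all genes, 10.3% were called higher and 11.0% lower by edgeR. Ddit4, an inhibitor of mTORC1 signalling, had 10.9, 21.8 and 29.0 CPM with vehicle and 60.5, 81.0 and 65.9 CPM with AG636 (log2 difference 1.75, edgeR adjusted p 0.00521). Tsc22d3 (GILZ) had 16.2, 19.9 and 23.4 CPM with vehicle and 35.3, 55.7 and 35.1 CPM with AG636 (log2 difference 1.08, edgeR adjusted p 0.012). Glul, glutamine synthetase, had 78.3, 62.9 and 70.6 CPM with vehicle and 117, 346 and 131 CPM with AG636 (log2 difference 1.49, edgeR adjusted p 0.0182), and the chemokine receptor Cxcr4 had a log2 difference of 0.78 (edgeR adjusted p 0.0242). AG636 replicate 2, the library in which Fkbp5 was highest, was also the highest of its group for 9 of the 14 genes, including Glul and Tsc22d3. The same share over all genes was not taken, so this count is not read as a trait of these targets. Without vehicle replicate 2, which ended the calls of Glul and Cxcr4, 2 genes rose, and without vehicle replicate 1, 3 rose and 1 fell. Cxcr4 also lost its call without vehicle replicate 1, AG636 replicate 1 or AG636 replicate 3.

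The group did not move one way, and 5 of the 14 values were below 0 with that library kept. Per1, a clock gene, had 14.2, 53.0 and 20.8 CPM in the AG636 libraries and 27.8, 21.7 and 27.6 CPM in the vehicle libraries, and Klf9 had 14.2, 40.2 and 6.04 CPM in the AG636 libraries against 79.5, 34.8 and 32.8 CPM with vehicle. Without AG636 replicate 2, 5 genes rose and 4 fell, the latter being Klf9 (-2.29), Mt2 (-1.27), Mt1 (-0.67) and Tgm2 (-0.57). For each of these 4 it was the highest AG636 library, so leaving it out had to lower their differences. These 4 falls are therefore not read as a result. Per1, Klf9, Mt1, Mt2 and Tgm2 were named after their values were seen.

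**Figure D5:**
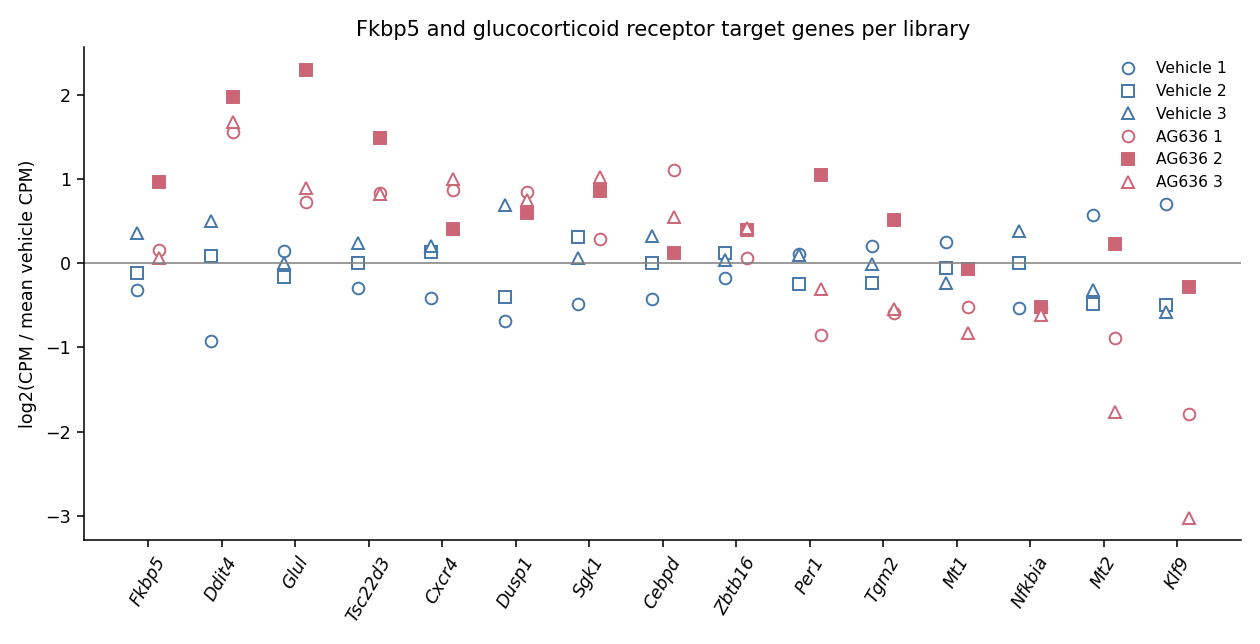
Log2 of CPM over the mean vehicle CPM (vertical axis) for Fkbp5 and 14 glucocorticoid receptor target genes, 1 point per library, with AG636 replicate 2 as filled squares. That library is the highest of the AG636 group for Fkbp5 and for 9 of the 14 genes, and the share over all genes was not taken.

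Markers of the sorted cells and of others were read in the same libraries, where 10.3% of all genes were called higher and 11.0% lower. Kit was present in all 6, at 43.1, 31.8 and 41.0 CPM with vehicle and 46.3, 37.3 and 44.7 CPM with AG636 (log2 difference 0.15, edgeR adjusted p 0.55). Of the other markers listed as present in the gate, Ptprc rose (0.65, edgeR adjusted p 0.0142). Cd34 (0.45, edgeR adjusted p 0.161) and Myb (0.03, edgeR adjusted p 0.878) did not pass. Itgam, which encodes CD11b, was at 12.1, 18.3 and 27.0 CPM with vehicle and 60.1, 31.3 and 41.2 CPM with AG636 (log2 difference 1.21, edgeR adjusted p 0.0219), a call lost without vehicle replicate 1, vehicle replicate 2, AG636 replicate 1 or AG636 replicate 3. All 9 neutrophil markers had higher means with AG636 and 7 rose, and their sum ranged from 1036 to 2367 CPM with vehicle and from 2888 to 5888 CPM with AG636. Of 8 macrophage and monocyte markers 7 had higher means and 3 rose, with sums of 68.8 to 104 CPM against 169 to 238 CPM. Of 8 erythroid markers 7 had lower means and 2 fell, with sums of 1693 to 4772 CPM against 1966 to 3274 CPM. Of 6 mast cell and basophil markers 4 had higher means and 2 rose, with sums of 467 to 730.1 CPM against 732 to 1371 CPM. The markers that rose were Cpa3 and Gata2, while Mcpt8, Prss34, Ms4a2 and Fcer1a did not pass. B cell markers summed to 6.78 to 14.6 CPM against 14.6 to 19.8 CPM with 5 of 6 below the filter, and T and NK cell markers to 195 to 334 CPM against 262 to 495 CPM with 6 of 7 below it. The T and NK sum was nearly all Nkg7, at 191, 326 and 302 CPM with vehicle and 493, 253 and 425 CPM with AG636. Ptprc, Cd34, Myb, Nkg7 and the mast cell and basophil markers were named after their values were seen. No marker on these lists was at 0 in all libraries, and the part of these differences in the lower HSP90 and cochaperone values was not tested.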

How the data were processed

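RNA was sequenced from 3 Vehicle and 3 AG636 libraries made with a 3′ mRNA kit. Per the submitters' processing notes, the tools named were FastQC, cutadapt 1.9.1, HISAT2 2.0.4, featureCounts and Subread 1.5.0-p3, with the builds GRCm38 and mm10. The authors mapped trimmed reads and deposited raw counts per gene, unnormalised, under Ensembl identifiers. The annotation release, the strand setting and the treatment of reads with several matches are not given in the sources used here.

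Of 54838 identifiers, 54723 matched a GENCODE symbol. Counts were tested with the quasi-likelihood test of edgeR 4.0.16 in R 4.3.3 on 11092 genes kept by filterByExpr (minimum count 10, minimum total 15), with TMM scaling, group as the only term and Benjamini-Hochberg adjustment over all genes at 0.05. The fit was tested on simulated data. CPM used TMM-scaled library totals, and log2 CPM a prior count of 2. Alternatives were other scalings and filters, a replicate block, each library left out, limma-voom (limma 3.58.1), DESeq2 1.42.0 and an adjusted p of 0.01.

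Libraries of a group differed by more than sampling noise, with chi-square per degree of freedom from 6.68 to 15.7. Depth was 4634963 to 7906589 counts, where 3 counts amount to 0.392 to 0.637 CPM. The members and all lists were chosen with earlier results of these data known. Named by rule were the 10 members, Kit and Itgam, the 5 genes nearest to Fkbp4 and the 5 nearest to Fkbp5, every gene of a list of up to 4 genes, and up to 6 called genes of lowest p in each longer list. Promoter sequences came from RefSeq on GRCm38.p6. Of the listed cochaperones, 1 is counted in the totals but not reported here by name.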

Additional observations from a re-analysis of the deposited data

How the results depend on the processing

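In the 13 alternatives, and at an adjusted p under 0.01, the 7 members called lower were called each time. These calls lend the family no weight, because it was picked on this contrast in the same libraries. The median of the 10 ranged from -0.78 without vehicle replicate 3 to -0.63 with library size alone, and Ptges3 moved to -0.60 with library size alone. Chordc1 passed the threshold without a filter on low counts, which made 8 members lower. Leaving out 1 library gave 399 to 1074 genes higher, 452 to 1298 genes lower and 6 to 10 of the other cochaperones lower. The fewest calls over all genes came without AG636 replicate 3, and vehicle replicate 1 (524 higher, 701 lower), vehicle replicate 2 (500 higher, 692 lower) and AG636 replicate 1 (605 higher, 630 lower) each cut the counts by more than the threshold of 1.5 times as well. At an adjusted p under 0.01, 231 genes were higher, 325 lower and 5 of the other cochaperones lower. Cnpy3 changed sign without vehicle replicate 1 and ranged from -0.051 to 0.165 over the libraries left out, and Hsf2 changed sign without vehicle replicate 3 (0.033) and without AG636 replicate 2 and ranged from -0.247 to 0.079, and the cause was not tested. Library size alone shifted the median of all genes by 0.09 and gave 61.9% of calls higher against 48.4%.

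Vehicle and AG636 libraries share replicate numbers, and the deviations of same-numbered libraries correlated at -0.06, -0.18 and 0.22, so the numbers were not taken as pairs. With the replicate block, 914 genes were higher and 1046 lower, 7 members and 9 other cochaperones were lower, 0 of either was higher, and the members' median was -0.72. Under it 7 of 8 TRiC genes were lower, 4 client kinases (against 6) and 1 client receptor or factor (against 3) were higher, and Ahr, Esr1, Tbk1 and Ppil3 were no longer called. Not every library correlated best with its own number. At this depth the median standard error over all genes was 0.20 on the log2 scale.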
